A study of Mus musculus with 6 samples.

Results

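Brush border hydrolases are the enzymes that stand on the apical membrane of kidney tubule cells with their active sites turned to the urine. The genes described here, Anpep, Enpep, Mme, Dpep1, Ggt1, Mep1a, Mep1b, Dpp4, Xpnpep2 and Treh, were chosen by name as apical hydrolases of the proximal tubule, and a transcript was taken as theirs where its gene symbol was that name. All 10 genes were found among the 23276 gene symbols of the table, with 22 of its 54721 transcripts. Of these 22 transcripts, 11 carried a RefSeq identifier and 11 had been assembled from the reads. The group is usually known as brush border peptidases, but Treh encodes a disaccharidase and Ggt1 a transferase as much as a hydrolase, so the wider name is used here.

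The RNA came from kidneys of 6 mice on postnatal day 22. In the 3 Pkd1 F/RC SKO mice (KspCre; Pkd1 F/RC), Cre driven by the kidney tubule promoter Ksp removes a floxed part of Pkd1 on one allele, and the other allele carries the hypomorphic RC mutation in the germline. The 3 Pkd1 F/RC DKO mice (KspCre; Pkd1 F/RC with miR17~92 F/F) carried the same Cre and Pkd1 alleles and also floxed alleles of the miR-17∼92 cluster, a group of microRNAs made from one primary transcript. All 6 kidneys are therefore Pkd1 mutant kidneys, recombination is limited to the tubule cells in which Ksp is active, and no kidney with normal Pkd1 was analysed here.

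The study was set up to compare the SKO and DKO kidneys. The deposited columns that compare these groups are the authors' own results and were not used here. The remaining measurement is a single value per transcript, the authors' mean over all 6 kidneys of both genotypes, as log2 CPM (read counts scaled to a common library size). Every level below is that mean, so it has no SD and no value for one kidney or one genotype. The number of reads behind it is unknown, no test could be made, and it is not known whether any 2 neighbouring levels differ by more than the spread between kidneys. The removal of the miR-17∼92 cluster was not checked here for the same reason.

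Cells of the proximal tubule reabsorb most of what the glomerulus filters, and their apical membrane is folded into a dense brush border. Filtered peptides are cut there by aminopeptidases, dipeptidases and endopeptidases until single amino acids and very short peptides remain, which transporters in the same membrane take up. The same enzymes also end the action of peptide hormones such as angiotensin and break down filtered glutathione. In a damaged or cystic kidney the proximal tubule can lose both cells and brush border. In RNA from a whole kidney, fewer cells of a type and less RNA per cell cannot be told apart.

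The members of the miR-17∼92 cluster are shown first, because the floxed alleles of the DKO kidneys are made to remove them and because their seeds were searched in the hydrolase genes further on. The guide strands of the 6 microRNAs are given 5′ to 3′ from RefSeq (GRCm38.p6), with the seed, bases 2 to 8, in capitals. All lie on the plus strand of chromosome 14, between chr14:115043684-115043706 for miR-17 and chr14:115044476-115044496 for miR-92a.
mmu-miR-17-5p: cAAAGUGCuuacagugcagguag
mmu-miR-20a-5p: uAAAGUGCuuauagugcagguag
mmu-miR-18a-5p: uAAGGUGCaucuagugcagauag
mmu-miR-19a-3p: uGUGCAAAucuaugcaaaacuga
mmu-miR-19b-3p: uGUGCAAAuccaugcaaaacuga
mmu-miR-92a-3p: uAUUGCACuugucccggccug
The 6 microRNAs hold 4 different seeds. miR-17 and miR-20a share one, miR-19a and miR-19b share another, and miR-18a and miR-92a each have their own.

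Every brush border hydrolase was present in the kidneys, and all 10 genes had a mean of at least 1 CPM. So did 13001 of all 23276 gene symbols. By the transcript with the highest mean CPM, the levels ran from 1.86 CPM for Treh to 529 CPM for Mep1a, with a median of 77.2 CPM. Among all 13001 gene symbols with at least 1 CPM the median was 12.6 CPM. 6 of the 10 hydrolases, Mep1a, Ggt1, Mme, Dpp4, Enpep and Anpep, were in the top 10% of these genes, which began at 59.7 CPM. The plot of the hydrolases over the distribution of all genes shows 9 of them to the right of its peak and Treh in its left flank.

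**Figure D1:**
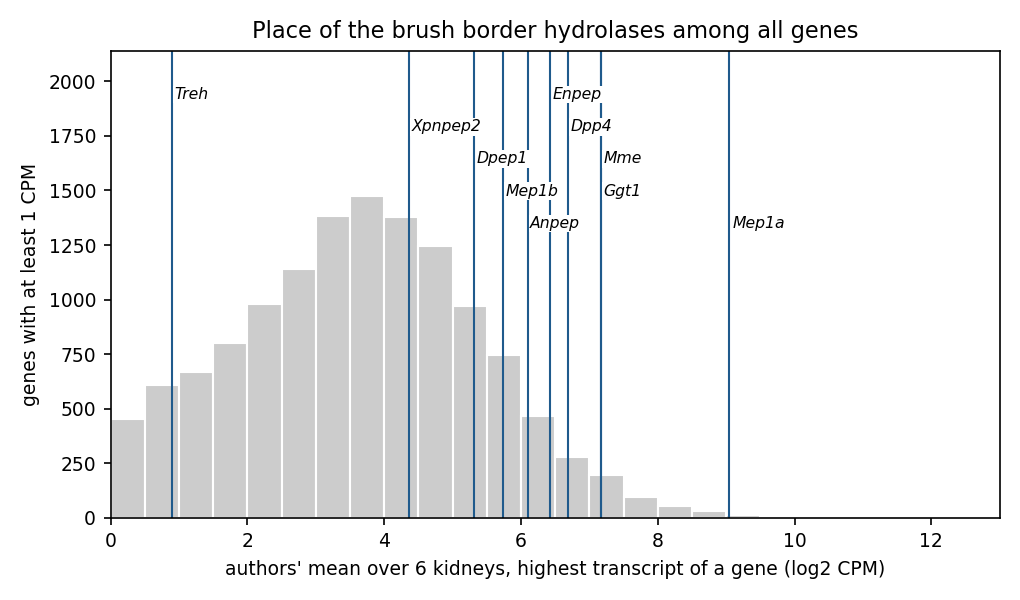
Histogram of the authors' mean log2 CPM over 6 kidneys for all genes with at least 1 CPM (x axis, log2 CPM in bins of 0.5, y axis, number of genes), with a vertical line for the highest transcript of each brush border hydrolase. Mep1a stands at 9.05 and Treh at 0.89, and the other 8 hydrolases lie between 4.36 and 7.17.

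The meprins are secreted or membrane-bound endopeptidases of the astacin family, and Mep1a and Mep1b encode their alpha and beta subunits. Mep1a (NM_008585, mm10 chr17:43474331-43502773, minus strand, 14 exons) was the highest of the hydrolases at 525 CPM for the RefSeq transcript. The assembled Mep1a transcripts had 529 and 401 CPM, and the higher of them stood at percentile 99.8 of all genes with at least 1 CPM. Mep1b (NM_008586, mm10 chr18:21072344-21100199, plus strand, 15 exons) was listed with 1 transcript at 53.1 CPM, at percentile 88.3 of the same genes. To compare genes, each RefSeq mean CPM was divided by the length of the matching mRNA. Per kb of mRNA the Mep1a level was 180 CPM and the Mep1b level 23.2 CPM, a ratio of 7.73. By this measure the subunit genes of one enzyme were the first and the third of the 10 hydrolases, with Ggt1 between them, but Mep1b was the seventh per kb of coding sequence and by CPM alone, and the eighth with transcripts summed.

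Ggt1 encodes gamma-glutamyltransferase, which takes the glutamyl residue off extracellular glutathione, and Dpep1 encodes the membrane dipeptidase that can cut the cysteinylglycine which this leaves. Ggt1 (NM_008116, mm10 chr10:75573448-75586182, plus strand, 13 exons) had 132 CPM for the RefSeq transcript and 144 and 136 CPM for the assembled ones. Dpep1 (NM_007876, mm10 chr8:123186242-123201812, plus strand, 11 exons) had 39.8 CPM for its RefSeq transcript and 39.7 CPM for the assembled one. Per kb of mRNA, Ggt1 stood at 61.1 CPM and Dpep1 at 17.8 CPM. The Ggt1 level per kb of mRNA was 2.63 times that of Mep1b, the next gene in that order, and Mep1a was in turn 2.94 times as high as Ggt1. Per kb of coding sequence Ggt1 had 77.6 CPM, and the next gene was Mme with 52.1 CPM.

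Anpep and Enpep encode the aminopeptidases N and A, which remove neutral and acidic residues from the amino end of peptides, and aminopeptidase A turns angiotensin II into angiotensin III. Anpep (NM_008486, mm10 chr7:79821804-79842352, minus strand, 20 exons) had 68.4 CPM for the RefSeq transcript and 65.6 CPM for the assembled one. Enpep (NM_007934, mm10 chr3:129269175-129332720, minus strand, 20 exons) had 85.94 CPM for the RefSeq transcript and 85.95 CPM for the assembled one. The genes differed in mean CPM but stood almost level per kb of mRNA, with 20.0 CPM for Anpep and 20.6 CPM for Enpep. Xpnpep2 encodes the membrane-bound aminopeptidase P, which frees an amino-terminal residue that is followed by proline, as in bradykinin. Xpnpep2 (NM_133213, mm10 chrX:48108725-48136981, plus strand, 21 exons) had 20.5 CPM and 5.85 CPM per kb, the lowest level among the peptidases.

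Mme encodes neprilysin, an endopeptidase that cuts many small peptide hormones, and Dpp4 encodes dipeptidyl peptidase 4, which removes dipeptides that end in proline or alanine. Mme (NM_008604, mm10 chr3:63295872-63386030, plus strand, 23 exons) had 117 CPM for the RefSeq transcript, and its 4 assembled transcripts all lay between 142.6 and 143.3 CPM. Dpp4 was listed with 2 RefSeq transcripts, NM_010074 at 103 CPM and NM_001159543 at 65.2 CPM (mm10 chr2:62330073-62412231, minus strand, 26 exons). Per kb of mRNA, Dpp4 had 19.5 CPM and Mme 14.6 CPM. Mme was the third hydrolase by mean CPM and the eighth per kb, because its mRNA of 8039 bases was the longest of the 10. The GENCODE model of that mRNA ran 2317 bases past the end that RefSeq gives the gene. Counted within the RefSeq span alone, its length was 5722 bases and its level 20.5 CPM per kb, which put it at the fifth place.

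Treh encodes trehalase, which splits the sugar trehalose. Treh (NM_021481, mm10 chr9:44673233-44686305, plus strand, 15 exons) had 1.86 CPM and 0.906 CPM per kb of mRNA. By CPM it stood at percentile 7.06 of the genes with at least 1 CPM and at percentile 48.1 of all gene symbols of the table. It was the only one of the 10 under 10 CPM. Xpnpep2, the next lowest, had 6.46 times its level per kb, and Mep1a had 198 times its level.

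Per kb of mRNA the order of the hydrolases was Mep1a, Ggt1, Mep1b, Enpep, Anpep, Dpp4, Dpep1, Mme, Xpnpep2 and Treh. The 6 genes in the middle, from Mep1b to Mme, lay within 1.60-fold of each other, and their order changed with the length used. Divided by the coding length, which leaves the untranslated regions out, the same 6 ran in the order Mme, Dpp4, Dpep1, Enpep, Mep1b and Anpep, from 52.1 to 23.6 CPM per coding kb. Mep1a, Ggt1, Xpnpep2 and Treh kept places 1, 2, 9 and 10 under each of the 5 ways of forming the level that were tried. By CPM per kb, 3 of the 10 hydrolases, the 2 meprin genes and Ggt1, were in the top 10% of the 12499 genes that had at least 1 CPM and a matched length, against 6 of 10 by CPM alone.

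The transcripts of one hydrolase gene lay close together. Of the 7 genes with more than 1 transcript, Enpep and Dpep1 had almost equal transcripts, and the ratio of the highest to the lowest was 1.04 for Anpep, 1.08 for Ggt1, 1.22 for Mme, 1.32 for Mep1a and 1.57 for Dpp4. Over the 8470 genes of the table with at least 1 CPM and 2 or more transcripts the median of this ratio was 1.12. How a read that several transcripts of a gene share was counted is not given in the sources used here, so near-equal values need not mean near-equal amounts of the isoforms, and a sum over transcripts can count a read more than once. The plot of every transcript shows the RefSeq and assembled values of most genes on top of each other, with the lower Dpp4 and Mep1a transcripts standing apart.

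**Figure D2:**
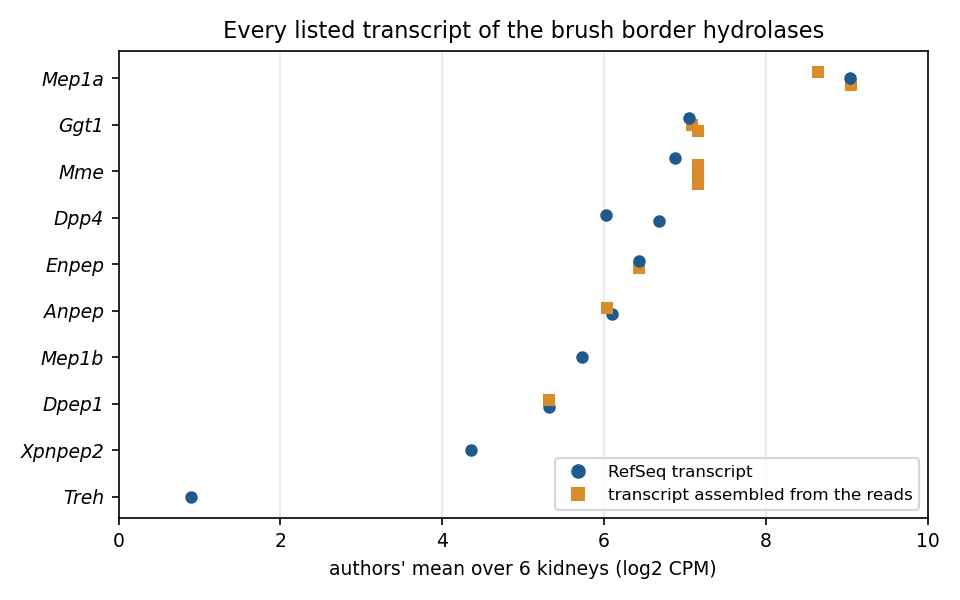
The authors' mean log2 CPM over 6 kidneys (x axis) for each of the 22 listed transcripts of the 10 brush border hydrolases (rows), as circles for RefSeq transcripts and squares for transcripts assembled from the reads. The 4 assembled Mme transcripts coincide above the RefSeq one, and the 2 Dpp4 transcripts are the farthest apart in ratio, at 102.6 and 65.2 CPM.

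Per kb of mRNA, most hydrolases were higher than every listed relative of their enzyme family in these kidneys. Relatives outside the list were not compared. Of the 9 genes with listed relatives, 28 relatives in all, 8 had a higher CPM per kb than each relative. The margin was widest for Dpep1, at 131 times Dpep2. Next came Mep1a at 49.0 times Bmp1 (a procollagen proteinase of the astacin family) and Ggt1 at 47.6 times Ggt6. Dpep2 had a mean of only 0.250 CPM, under the minimum of 1 CPM, so the size of the Dpep1 margin is uncertain. Bmp1 and Ggt6 were both above that minimum. Mep1b had 6.34 times the Bmp1 level per kb. Anpep and Enpep stood at 2.62 and 2.70 times Npepps, the cytosolic puromycin-sensitive aminopeptidase, whose level was 7.61 CPM per kb. This depended on the division by length. By CPM alone their listed relative Lnpep had 74.6 CPM, above Anpep with 68.4 CPM and below Enpep with 86.0 CPM.

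The margin was narrow for the other peptidases. Mme was 1.44 times as high per kb as Ece1, the endothelin-converting enzyme, and Dpp4 was 1.57 times as high as the cytosolic Dpp8. With its length within the RefSeq span, Mme had 20.5 CPM per kb, a wider margin over Ece1, which was left at 10.1 CPM per kb. Xpnpep2 was the exception, with 0.481 times the level of its cytosolic relative Xpnpep1, which had 12.2 CPM per kb. Whether these 3 margins exceed the spread between kidneys was not tested. Of all 23276 gene symbols, 13001 had at least 1 CPM. Of the wider list of 29 relatives, which also holds the lysosomal Dpp7, 15 had at least 1 CPM and 14 had less. Their median was 0.402 CPM per kb, against 19.7 for the hydrolases and 1.403 for all 20175 genes with a matched length. For the 12499 of those genes with at least 1 CPM the median was 4.06 CPM per kb. By CPM the highest relatives were Lnpep, Dpp8 and Xpnpep1, which had 2.48, 12.4 and 12.2 CPM per kb. The lowest was Tll2 at 0.00565 CPM per kb. Tll2 had the lowest CPM of the table, 0.0263, so its value per kb is set by mRNA length alone.

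**Figure D3:**
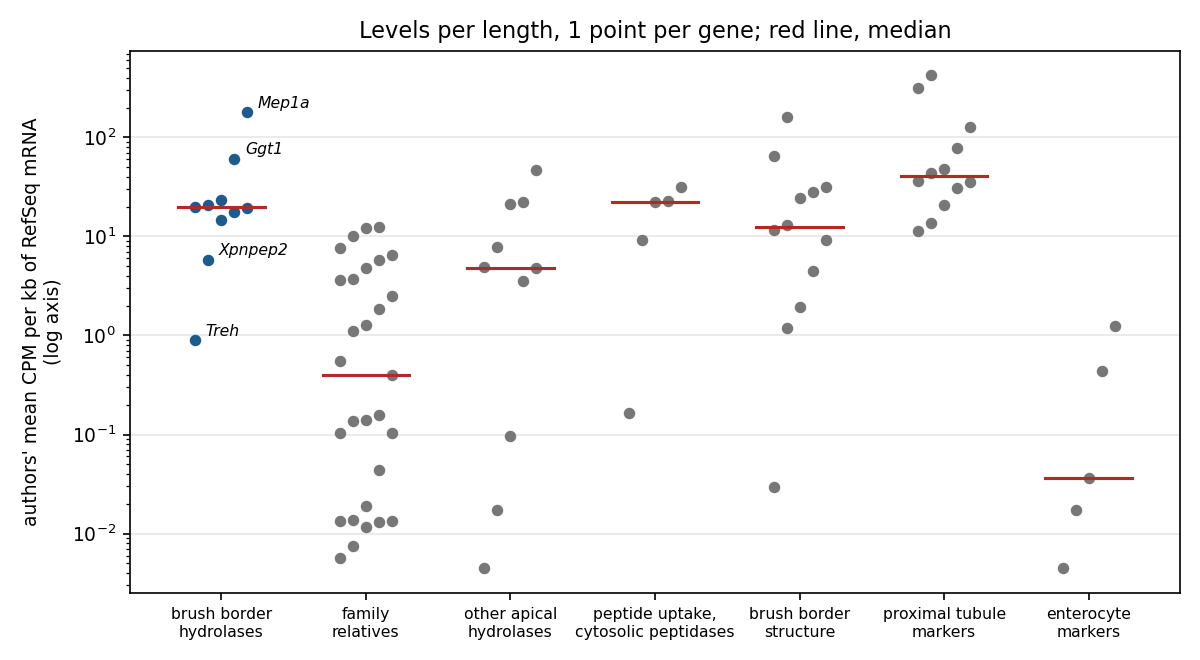
The authors' mean CPM per kb of RefSeq mRNA (y axis, log scale) for each gene of 7 lists, with a point per gene and a red line at the median of each list. Of the 10 brush border hydrolases (median 19.7), 8 sit above every listed family relative (median 0.402), and Treh, at 0.906, lies apart from the others.

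Other genes of the same membrane and of peptide breakdown were looked up too. Of 10 other apical hydrolases, 7 had at least 1 CPM, where 13001 of all 23276 gene symbols did. The highest by CPM were Alpl, Ace and Folh1, which encode alkaline phosphatase, the angiotensin-converting enzyme and a folate hydrolase, with 46.8, 21.1 and 22.2 CPM per kb. The lowest was Sis, the intestinal sucrase-isomaltase, at 0.00447 CPM per kb, which is the lowest CPM of the table divided by its length. The list's median was 4.86. Of 5 genes of peptide uptake and cytosolic peptide breakdown, 4 had at least 1 CPM. The cytosolic peptidase genes Lap3, Cndp2 and Pepd had 31.3, 22.5 and 22.9 CPM per kb. The peptide transporter genes were unequal, with 9.15 CPM per kb for Slc15a2, the main kidney form, and 0.164 for Slc15a1, the main intestinal form.

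Of 12 genes that build the brush border, 11 had at least 1 CPM, with a median of 12.4 CPM per kb. Pdzk1, a scaffold of apical transporters, had 161 CPM per kb, Ezr, which ties the membrane to actin, had 64.4, and Cdhr5, an adhesion protein between microvilli, had 24.2. The lowest was Myo1a, the myosin of intestinal microvilli, at 0.0298 CPM per kb. Only Pdzk1 and Ezr of these 12 genes were above Ggt1 per kb, and none was above Mep1a. Ezr was close to Ggt1, which had 61.1 CPM per kb for its RefSeq transcript, and the order of such close levels was not tested.

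The cell types of the kidney were checked by their markers. All 12 proximal tubule markers had at least 1 CPM, with a median of 40.4 CPM per kb. The highest by CPM were the phosphate transporter gene Slc34a1, the megalin gene Lrp2 and Miox, with 1030, 567 and 355 CPM, and the lowest was the amino acid transporter gene Slc7a13 with 28.9 CPM. The thick ascending limb (5 of 5 markers, 7.98 to 1022 CPM), distal convoluted tubule (4 of 4, 3.14 to 170 CPM), principal cells (5 of 5, 14.1 to 77.7 CPM) and intercalated cells (5 of 5, 17.7 to 41.0 CPM) were present too. So were podocytes (5 of 5, 6.97 to 131 CPM), endothelium (5 of 5, 27.0 to 60.2 CPM) and macrophages (5 of 5, 4.49 to 25.3 CPM). Mme, Anpep, Dpp4 and Enpep are also made by podocytes, vessels or leukocytes, and the share of their RNA that came from such cells was not tested. The intestine has a brush border with many of the same enzymes, but 0 of 5 enterocyte markers reached 1 CPM. Apoa4, Fabp1 and Lct had 0.794, 0.695 and 0.107 CPM, and Sis had the lowest value of the table, 0.0263 CPM. As 4617 transcripts share that value, it marks the floor of the table and is not a measured level of Sis.

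The 3′-untranslated region (3′-UTR) is where microRNAs mostly bind, and those of the 10 hydrolases were searched on the transcript strand for the complement of each of the 4 seeds. The letters searched were GCACTTT for miR-17 and miR-20a, GCACCTT for miR-18a, TTTGCAC for the miR-19 pair and GTGCAAT for miR-92a. Matches of different seeds may overlap and were counted separately. Only Dpp4 held one. Its single match, GCACTTT, complements the seed shared by miR-17 and miR-20a and lies at bases 1791 to 1797 of a 3′-UTR of 2545 bases, with 748 bases from there to its end. The site is printed 5′ to 3′ on the minus strand with 11 bases on each side, from chr2:62330810-62330838 of GRCm38 (mm10), with the match in capitals.
Dpp4 site: tttagaatacaGCACTTTcaccatgtgca
Of the 12399 genes with at least 1 CPM and a 3′-UTR in the annotation, 31.4% held a match to one of the 4 seeds and 13.7% held GCACTTT.

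The hydrolase 3′-UTRs had a median of 687.5 bases against 1030 for all these genes, with 6 shorter and 4 longer than that, and they ranged from 141 bases in Mep1b to 5698 in Mme. Over 12.8 kb in all, the hydrolases held 0.0783 matches per kb, against 0.312 per kb over all genes. Mme had no match, although 82.2% of the 269 genes with a 3′-UTR at least that long had one. This 3′-UTR includes the 2317 bases by which the GENCODE model runs past the end RefSeq gives the gene. Up to the RefSeq end it had 3381 bases and again no match, 73.4% of the 1290 genes with a 3′-UTR of at least this length had one, and the hydrolases then held 0.0956 matches per kb over 10.5 kb. The drawing of the 3′-UTRs shows how much of the searched sequence is Mme. With a shorter match of 6 bases, to bases 2 to 7 of the microRNAs, 6 of 10 hydrolases held at least 1 match, against 64.1% of all genes. These were 6 in Mme (4 up to the RefSeq end), 3 in Dpp4, 2 in Enpep and 1 each in Anpep, Dpep1 and Xpnpep2. Matches of letters describe the sequence alone and are not measured binding.

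**Figure D4:**
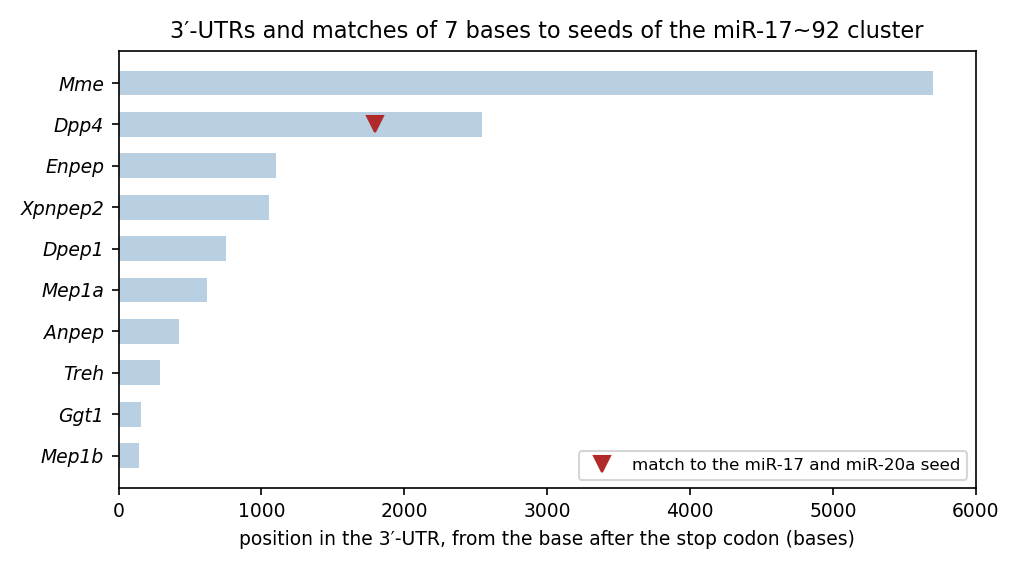
The 3′-UTR of each brush border hydrolase drawn to scale from the base after the stop codon (x axis, bases), with a triangle at each 7-base match to a seed of the miR-17∼92 cluster. The longest 3′-UTR, that of Mme at 5698 bases, has no match, and the only match lies in that of Dpp4.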

How the data were processed

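Strand-specific total RNA libraries of 6 kidneys, 3 Pkd1 F/RC SKO and 3 Pkd1 F/RC DKO by the genotype in the labels, were sequenced. The authors trimmed the single-end reads, mapped them to mm10 with TopHat2 (version 2.0.12) and compared the groups with edgeR (version 3.2.4). The submitters' processing notes also name bcl2fastq 1.8.4, Cufflinks and featureCounts of Subread 1.4.6. The deposited table holds, per transcript, the single mean log2 CPM that edgeR gives for all 6 kidneys of the fit together. It also holds 4 columns of the authors' own group comparison (log2 fold change, likelihood ratio, p-value and adjusted p-value), which were not used. The planned tests between genotypes need a value for each kidney and were not run.

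CPM was taken as 2 to the power of the deposited log2 value, and the lowest CPM in the table was 0.0263, in 4617 transcripts. A gene's highest transcript gave its rank. Levels per kb used the highest RefSeq mRNA with its GENCODE M21 length (GRCm38, the same assembly as mm10), paired for 26098 of 27012 RefSeq mRNAs. Both Dpp4 RefSeq transcripts paired with the same GENCODE transcript, so only the higher was divided by length. 3′-UTRs began after the 3 bases of the stop codon, and all 6 microRNA sequences were found in RefSeq. Without a spread between kidneys, an alternative counted as changed where a count moved by over 1.5 times. Steps were tested on simulated data (Python 3.11.15, numpy 2.4.6, pandas 2.3.3, matplotlib 3.10.9).

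Named genes were the 10 hydrolases and, of each list, the 3 highest and the lowest by mean CPM. Marker lists other than that of the proximal tubule and of enterocytes are given by range. The families and the highest relative of each, Dpp7, Slc15a2, the shorter Mme 3′-UTR and the seed search were added after the values were seen. The hydrolases and all lists were chosen with earlier results of these data known. 1 gene of the list of other apical hydrolases is not reported here.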

Additional observations from a re-analysis of the deposited data

How the results depend on the processing

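The alternatives could not be judged against a spread between kidneys, and depth is unknown, so nothing here separates neighbouring levels. All 10 hydrolases kept at least 1 CPM when transcripts were summed, and 9 had at least 10 CPM by the highest transcript. The first was fixed in advance, since a sum cannot fall below the highest transcript. The number in the top 10% of genes was 6 with RefSeq transcripts alone, 5 with transcripts summed and 8 with no minimum CPM. Subtracting the lowest CPM in the table moved the median of the 10 from 77.2 to 77.1 CPM. The order per kb depended most on the length. Of 10 places, 4 were kept with the coding length, 4 with no division by length, 6 with transcripts summed and 6 with exons counted only within the RefSeq span of a gene. The last was chosen after seeing the data, and by construction these settings change the divisor or the transcripts that stand for a gene. The shorter seed match, also chosen after seeing the data, raised the hydrolases with a match from 1 to 6, since fewer bases must match. With the 3′-UTR of Mme ended where RefSeq ends the gene, also added then, it stayed at 1. Of all values under these alternatives, those of single genes included, 17 stayed within 1.5 times of the reported one and 5 did not, the 4 orders and the shorter match. Most of the 17 came from subtracting the lowest CPM, 0.0263, which is too small to move levels of 1.86 CPM or more by 1.5 times. The count of 17 is therefore no measure of how firm the levels are. The tests between SKO and DKO kidneys, DESeq2, the fit with no filter and leaving out each replicate in turn were not run, because they need a value for each kidney. No paired analysis was possible because the values used carry no replicate numbers.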
